A study of Mus musculus with 12 samples.

Results

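The 10 genes described here handle the calcium that makes heart muscle contract and relax: sarcolipin (Sln), phospholamban (Pln), the calcium pump of the sarcoplasmic reticulum (Atp2a2, which encodes SERCA2), the ryanodine receptor (Ryr2), triadin (Trdn), both calsequestrins (Casq2 and Casq1), junctophilin 2 (Jph2), the sodium-calcium exchanger (Slc8a1) and the calcium- and calmodulin-dependent kinase CaMKII delta (Camk2d). They and the gene lists used below were chosen by name, with earlier results of these data known. The shares of all genes set beside their counts are therefore a description. Every probe whose gene name on the array equals 1 of the 10 symbols was taken, which gave 18 of 55681 probes. Of the 18, 17 passed the filter on dim probes, so that all 10 genes were measured among 18021 gene names.

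RNA of the left ventricular wall with its apex, without the septum, was measured in 12 mice aged 6 months, 1 mouse per one-colour array and 4 mice per group. In both mutant groups a tamoxifen-inducible Cre recombinase expressed from the Cx40 locus (Cx40-creERT2), active in the trabecular muscle of the embryo and heterogeneously in the atria, removed a floxed Nkx2-5 allele (Floxed-Nkx2-5-Δneo). Pregnant females were injected at E10.5 and E11.5 for the group labelled Nkx2-5Δtrab, called TrbE10 below, and at E13.5 and E14.5 for the group labelled Nkx2-5Δcomp, called TrbE14. The paper calls the controls littermates that carried the floxed alleles without Cre (Cx40+/+), while their labels say not injected. Since pregnant females were injected, these statements conflict, and whether the controls met tamoxifen is not settled here. Deletion, Cre, the Cx40 allele that carries it and any difference in tamoxifen cannot be told apart. Since this Cre acts in part of the wall muscle, a mutant wall can mix deleted and undeleted cells. The mice were born by caesarian section and raised by foster females.

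In a heart muscle cell, a small entry of calcium through the surface membrane opens ryanodine receptors of the sarcoplasmic reticulum, the internal calcium store, and the released calcium drives contraction. SERCA2 pumps it back and the exchanger Slc8a1 moves the rest out of the cell, which lets the muscle relax. Phospholamban and sarcolipin are small membrane proteins that bind the pump and restrain it. In the mouse heart sarcolipin is known as a product of atrial rather than ventricular muscle, while phospholamban is the main brake on the pump in the ventricle.

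Values are log2 signals after quantile normalization, so that a difference of 1 is a doubling of signal. A probe reads its own brightness, and levels were not compared between probes. A gene was called when limma gave at least 1 of its probes an adjusted p below 0.05 over all 24593 probes tested. The brightest probe of each member was well above background on all 12 arrays. All 4 TrbE10 arrays lay on a slide of their own and the control and TrbE14 arrays shared another, so that slide and group cannot be told apart for TrbE10, while TrbE14 was compared with control within 1 slide. The 12 samples are separate mice. Nkx2-5 itself read 11.89 to 12.23 in controls, 11.21 to 11.67 in TrbE10 and 11.12 to 11.63 in TrbE14 hearts. It fell by 0.66 in TrbE10 hearts (limma adjusted p = 0.0459, a call lost in 10 of the 12 fits that leave out 1 array) and its value was -0.59 in TrbE14 hearts (limma adjusted p = 0.106); the sources used here do not say whether its probe lies in the deleted part. All 10 ventricular muscle markers were measured, none was called, and their mean log2 signal lay between 14.97 and 15.26 on the 12 arrays.

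The array reads each transcript through probes of 60 bases, placed by the array's design on the mouse build mm9. The first 30 bases of the probes that carry the main values are shown in lower case, 5′ to 3′ along the transcript, because each member's value is that of 1 such stretch and the pump is read by a pair of them that did not give the same picture. The Sln probe is chr9:53701574-53701633 on the plus strand, of which the part shown is chr9:53701574-53701603. The Pln probe is chr10:53064944-53065003 on the plus strand, shown over chr10:53064944-53064973. The brighter Atp2a2 probe is chr5:122903704-122903763 on the minus strand, shown over chr5:122903734-122903763, and the other is chr5:122910660-122910719 on the same strand, shown over chr5:122910690-122910719; 6896 bases of the genome lie between them, the brighter one being nearer the 3′ end of the gene. The Ryr2 probe is chr13:11645812-11645871 on the minus strand, shown over chr13:11645842-11645871.
Sln: gccttagctttgttccctagcaaatgtact
Pln: caaaacagtttatgcctaactttgcaaacc
Atp2a2, brighter probe: gttccacactgtattattgtaacttattta
Atp2a2, other probe: tcgagttgaaccttcccacaagtctaagat
Ryr2: taaatgaacaaagaaagccctcagaaacaa
The design gives the Casq1 probe a span of 1504 bases on the genome, longer than the probe itself. Whether the other probes lie in coding or untranslated exons was not determined here, since no mm9 annotation was used.

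Sarcolipin was the member that differed most between the groups and also the one that varied most among the controls. The 4 control hearts read 8.58, 10.83, 12.48 and 9.31. The TrbE10 hearts read 14.16, 13.54, 14.42 and 14.27, and the TrbE14 hearts 13.87, 13.71, 13.53 and 13.38. Every mutant heart was above every control heart, and the highest control heart, the third, came nearest to them.

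In TrbE10 hearts the Sln log2 signal rose by 3.80, a 13.9-fold difference (standard error 0.66, 95% interval 2.36 to 5.24, limma adjusted p = 0.0177, n = 4 per group). In TrbE14 hearts it was higher by 3.33, 10.0-fold (standard error 0.66, 95% interval 1.89 to 4.77), and the adjusted p of 0.0511 from limma missed the threshold. The exact two-sided permutation test over the 70 orders of the labels gave p = 0.0286 in both comparisons, the smallest it can give with 4 against 4. Between the mutants Sln differed by 0.47 (95% interval -0.97 to 1.92, limma adjusted p = 0.964, exact permutation p = 0.0857). The lowest TrbE10 heart lay below the highest TrbE14 hearts. Limma pools the spread over all groups, so the standard error was 0.66 in each of these comparisons. The group SDs were unlike, at 1.73 in control, 0.39 in TrbE10 and 0.21 in TrbE14 hearts. The interval between the mutants therefore carries the control spread. The intervals and limma p against control rest on a spread pooled with the tighter mutant groups, so they can understate the uncertainty. Intervals with a separate spread per group were not computed. In bulk tissue a larger share of cells that make a transcript and more of it per cell cannot be told apart.

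**Figure D1:**
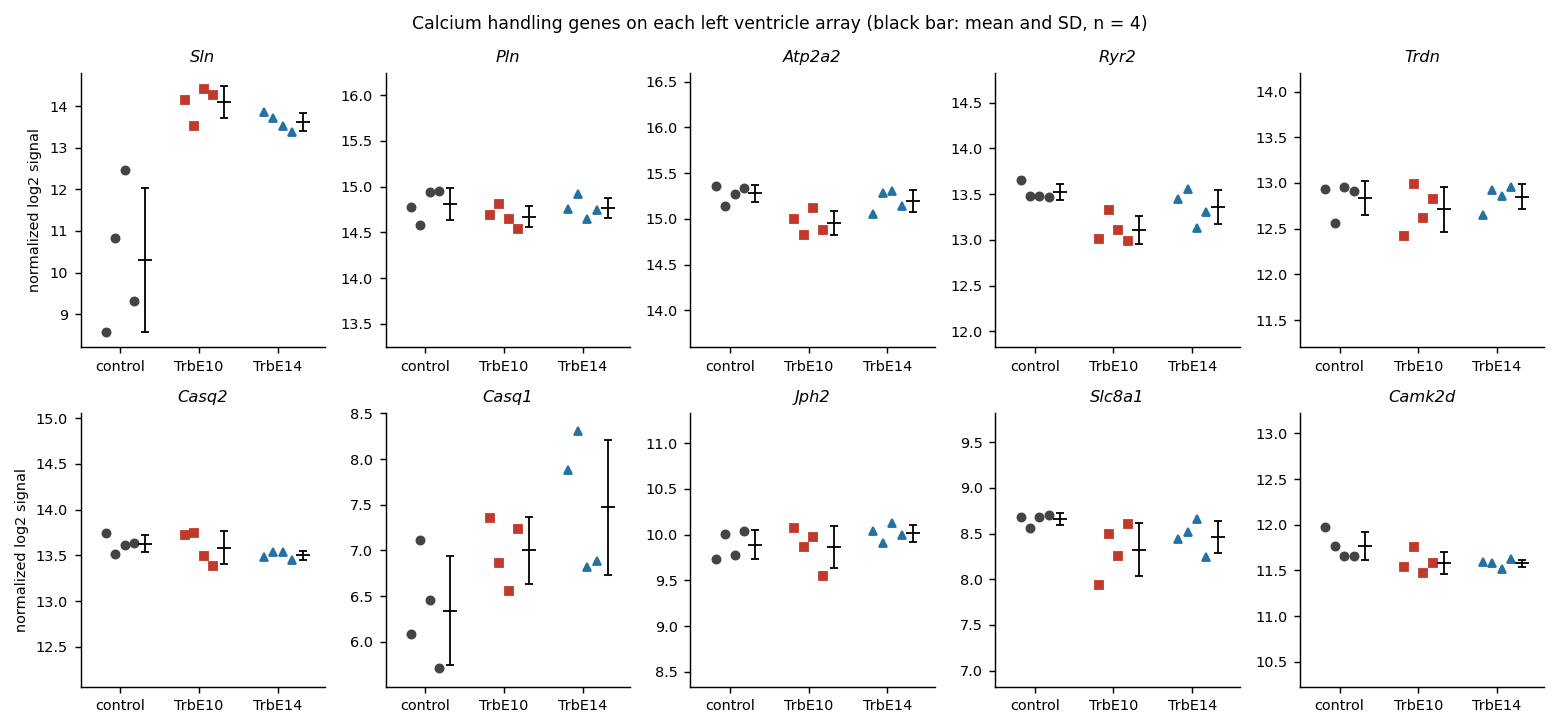
Normalized log2 signal (y axis) of the brightest probe of each of the 10 genes on each array, by group (x axis); circles are control, squares TrbE10 and triangles TrbE14 hearts, and the black bar gives the mean and SD of 4 hearts. The Sln panel spans a wider y range than the others: its controls reach from 8.58 to 12.48 and its mutants lie between 13.38 and 14.42, while most other genes differ little between groups.

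Both Sln comparisons with control stood near the threshold. The TrbE10 call was lost without the filter on dim probes (adjusted p = 0.0571), in a fit of the TrbE10 and control arrays alone (0.0630), and when the fourth control heart (0.0577), or the first (0.0507), the third (0.0610) or the fourth (0.0508) TrbE10 heart, was left out. The TrbE14 difference passed with normexp background correction (adjusted p = 0.0272), with the authors' normalized values (0.0436), with the mean of a gene's probes (0.0456), with sex as a covariate (0.0320), without the third control heart (0.00416), and by SAM. Sex was read from the Ddx3y signal alone, and the split it gave was uneven between the groups. With that covariate the Sln difference was 4.04 in TrbE10 and 3.80 in TrbE14 hearts.

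The spread of Sln among the control hearts was 3.90 on the log2 scale, a 14.9-fold range with an SD of 1.73. Of 24590 probes with a value on all control arrays, 99.8% had a smaller range, 51 had a larger one, and the median range was 0.40. Among the TrbE10 hearts the Sln range was 0.88 (SD 0.39) and among the TrbE14 hearts 0.49 (SD 0.21), or 1.84-fold and 1.40-fold. Without the third control heart the control range was 2.25, and the Sln difference became 4.53 in TrbE10 and 4.05 in TrbE14 hearts.

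Other muscle genes varied in the same control hearts. Myl7, the atrial regulatory myosin light chain, read 8.68, 10.59, 12.14 and 9.63 in the 4 controls, and Myl4, the atrial essential light chain, read 11.72, 13.21, 14.58 and 12.27. Mybphl, a relative of myosin-binding protein H, read 5.59, 7.24, 9.22 and 6.40. In these 3 genes the control hearts stood in the same order as for Sln, with the first heart lowest and the third highest. Mybphl is shown because it ranked near the top in likeness to Sln with the group means removed, so its order restates that choice. Mybphl differed from control by 1.84 in TrbE10 hearts (limma adjusted p = 0.161) and by 0.67 in TrbE14 hearts (limma adjusted p = 0.628).

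The mutant hearts read 13.38 to 14.42 for Sln over Myl7 values of 8.10 to 11.53. The TrbE10 hearts read 11.18, 8.10, 10.34 and 10.94 for Myl7 and the TrbE14 hearts 9.85, 11.53, 9.03 and 10.63, so that both groups overlapped the controls. Myl7 differed from control by -0.12 in TrbE10 hearts (limma adjusted p = 0.964) and by 0.00 in TrbE14 hearts (limma adjusted p = 1.00), and Myl4 by -0.09 (limma adjusted p = 0.968) and 0.09 (limma adjusted p = 0.964). The second TrbE10 heart had less Myl7 signal than any control heart and a Sln signal of 13.54, above all of them. That heart was also the lowest of the TrbE10 hearts for Sln. With the group means removed, Sln correlated with Myl7 (Pearson r 0.74) and with Myl4 (0.75) over the 12 arrays. These ranked 103 and 89 of 18005 genes. With the Myl7 log2 signal as a covariate, added after the data were seen, Sln was higher by 3.87 in TrbE10 hearts (limma adjusted p = 0.00431) and by 3.33 in TrbE14 hearts (limma adjusted p = 0.0132). That fit gives every group the same slope on Myl7, so it is no test of the part of atrial tissue.

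**Figure D2:**
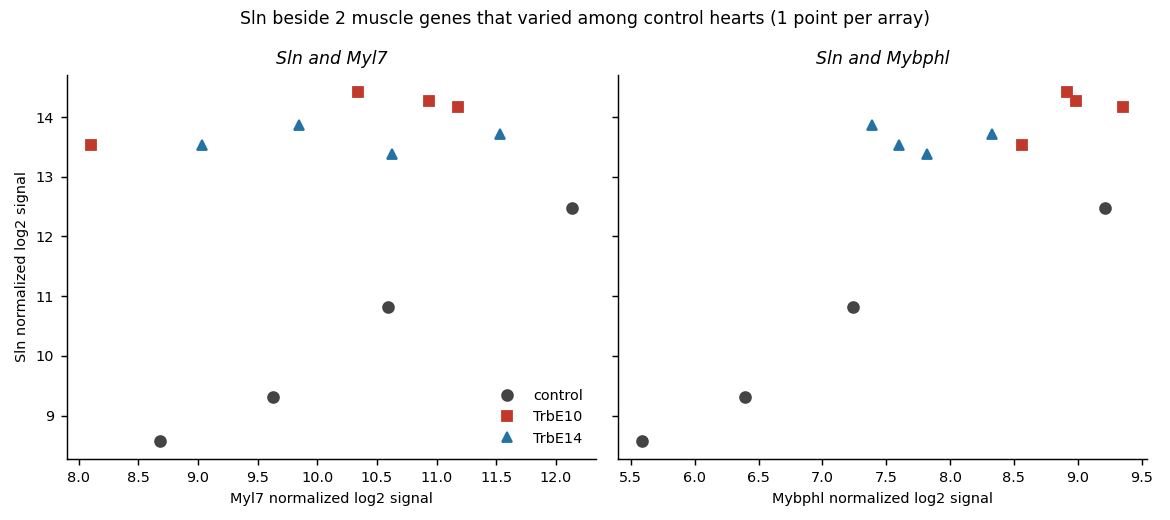
Sln normalized log2 signal (y axis) against that of Myl7 (left) and Mybphl (right), 1 point per array; circles are control, squares TrbE10 and triangles TrbE14 hearts. The 4 control hearts climb from 8.58 to 12.48 in Sln as Myl7 goes from 8.68 to 12.14. The mutants lie between 13.38 and 14.42 in Sln over Myl7 values of 8.10 to 11.53.

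The whole list of 14 atrial markers was measured, and 3 of them were called in TrbE10 and 1 in TrbE14 hearts, beside 2.15% and 0.76% of all genes tested. Its mean log2 signal was 8.27, 8.74, 9.22 and 8.66 in the 4 control hearts, which stood in the same order as for Sln. It was 8.24 to 9.37 in TrbE10 and 8.88 to 9.33 in TrbE14 hearts. Its median log2 difference was -0.13 in TrbE10 and -0.02 in TrbE14 hearts, beside -0.02 and -0.03 over all genes. In TrbE10 hearts 11 of the 14 lay below 0 and 3 above, from -1.67 to 4.27. In TrbE14 hearts 8 lay below 0 and 6 above, from -1.27 to 4.45. Bmp10, a growth factor of atrial and trabecular muscle, was not well above background on any control array and passed the filter through the mutant groups. Its signal exceeded that of the controls at least 4.56-fold in TrbE10 and at least 5.17-fold in TrbE14 hearts. The log2 differences from the background readings of the controls were 4.27 (limma adjusted p = 2.53e-04) and 4.45 (limma adjusted p = 2.82e-04). Its calls, counted above in each mutant, are therefore no support for a difference. The bounds hold for the main processing. The log2 differences became 1.56 and 1.54 with normexp background correction and 1.60 and 1.75 with the authors' normalized values, and remained called. Dkk3, a secreted glycoprotein, rose by 1.62 in TrbE10 hearts (limma adjusted p = 0.0459), and Stard10, a lipid transfer protein, fell by 0.66 (limma adjusted p = 0.0482), calls that were lost in 11 and 9 of the 12 fits without 1 array. In TrbE14 hearts Dkk3 was higher by 1.46 (limma adjusted p = 0.106) and Stard10 differed by -0.19 (limma adjusted p = 0.576). The part of atrial tissue in the Sln values was not tested.

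The genes whose pattern was most like that of Sln over the 12 arrays were C1qa (Pearson r 0.96), Slc15a3 (0.94), Eml3 (0.93), Csf1r (0.92), Efnb2 (0.92), Cybb (0.91), a transcript known by its interval on chromosome 1 (0.91) and Apoe (0.91), of 18005 genes compared. These correlations describe 12 points that share the split between control and mutant hearts. The chromosome 1 transcript was not well above background on any control array, so that its control values are background readings. C1qa and Csf1r are also on the list of macrophage markers, of which 12 of 12 were measured; 5 rose in TrbE10 hearts (Csf1r, C1qa, C1qc, Cd68 and, by the dimmer of its probes, Itgam) and 1 in TrbE14 hearts (Csf1r), beside 2.15% and 0.76% of all genes. The C1qa and Cd68 calls were lost in 6 and 5 of the 12 fits without 1 array, and both also without the filter on dim probes and in the fit of the compared groups alone. The brighter Itgam probe differed by -0.09 in TrbE10 hearts. Csf1r, the receptor for a macrophage growth factor, rose by 1.14 (limma adjusted p = 1.12e-04) and 0.92 (limma adjusted p = 6.07e-04). The mean log2 signal of the macrophage list was 9.45 to 9.47 in control, 9.77 to 10.15 in TrbE10 and 9.73 to 9.83 in TrbE14 hearts, and its part in the values of the calcium handling genes was not tested. With the group means removed, the most alike were Wars (0.97), Mybphl (0.93), a transcript known by its interval on chromosome 3 (0.90) and the unnamed transcript TC1708064 (0.88). The last 2 were well above background on 2 of the 4 control arrays.

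No difference in phospholamban, the other small regulator of the pump, passed the test. Its probe read 14.58 to 14.95 in control, 14.53 to 14.81 in TrbE10 and 14.65 to 14.92 in TrbE14 hearts. The log2 difference was -0.14 in TrbE10 (95% interval -0.37 to 0.09, limma adjusted p = 0.555) and -0.04 in TrbE14 hearts (95% interval -0.27 to 0.19, limma adjusted p = 0.876).

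The pump itself was read by 2 probes that gave different pictures in TrbE10 hearts. By the brighter Atp2a2 probe the controls read 15.36, 15.15, 15.27 and 15.34, the TrbE10 hearts 15.00, 14.83, 15.12 and 14.88, and the TrbE14 hearts 15.05, 15.29, 15.31 and 15.14. All TrbE10 hearts lay below all controls, by 0.32 on average (95% interval -0.53 to -0.12), while the TrbE14 hearts overlapped the controls. The limma adjusted p was 0.120 in TrbE10 and 0.710 in TrbE14 hearts, so neither passed. By the other probe the differences were -0.08 in TrbE10 (95% interval -0.40 to 0.25) and 0.13 in TrbE14 hearts (95% interval -0.20 to 0.46), and both mutant groups overlapped the controls. Averaged over both probes the TrbE10 difference was -0.20.

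Ryr2, the release channel, was the other member whose TrbE10 hearts all lay below the controls. Controls read 13.65, 13.48, 13.48 and 13.47, TrbE10 hearts 13.01, 13.33, 13.11 and 12.99, and TrbE14 hearts 13.45, 13.55, 13.13 and 13.30. The highest TrbE10 heart lay below the lowest control, while the TrbE14 hearts reached into the controls. The log2 difference was -0.41 in TrbE10 hearts (95% interval -0.65 to -0.17, limma adjusted p = 0.0918) and -0.16 in TrbE14 hearts (95% interval -0.40 to 0.08, limma adjusted p = 0.529). Without the second TrbE10 heart, the highest of its group, the difference was -0.49 and passed (limma adjusted p = 0.0422).

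The proteins that sit with the release channel showed smaller values. Triadin, which ties the channel to calsequestrin, was read by 3 probes that passed the filter, with differences between -0.13 and -0.07 in TrbE10 and between -0.10 and 0.01 in TrbE14 hearts; the dimmest of them was well above background on 9 of 12 arrays. Casq2, the calcium-binding protein of the cardiac store, read 13.52 to 13.74 in control, 13.38 to 13.75 in TrbE10 and 13.44 to 13.54 in TrbE14 hearts. Its differences were -0.04 (95% interval -0.25 to 0.16) and -0.13 (95% interval -0.34 to 0.08). Jph2, which holds the surface membrane and the store together, differed by -0.03 (95% interval -0.30 to 0.24) and 0.13 (95% interval -0.14 to 0.39), with all groups overlapping.

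By the brightest probe of each member, Casq1, the calsequestrin of skeletal muscle, had the widest range after Sln among the control and the TrbE10 hearts. Among the TrbE14 hearts its range was the widest of these, at 1.49 on the log2 scale against 0.49 for Sln. Its controls read 6.09, 7.12, 6.46 and 5.71, TrbE10 hearts 7.36, 6.86, 6.55 and 7.24, and TrbE14 hearts 7.88, 8.31, 6.81 and 6.88. The second control heart lay among the mutants, so the groups overlapped. The differences of 0.66 in TrbE10 (95% interval -0.17 to 1.49, limma adjusted p = 0.417) and 1.13 in TrbE14 hearts (95% interval 0.30 to 1.96, limma adjusted p = 0.246) did not pass, and they were 0.35 and 0.68 with normexp background correction. Of the 14 skeletal muscle markers, 7 did not pass the filter, among them Myh1, Myh2, Myh4 and Mylpf, and Atp2a1, the skeletal form of the pump, differed by -0.13 in TrbE10 and 0.16 in TrbE14 hearts. Of the 7 measured, Tnni2, fast troponin I, fell by 1.38 in TrbE10 hearts (limma adjusted p = 0.0193). It was the only one called in TrbE10 hearts and none was called in TrbE14 hearts, beside 2.15% and 0.76% of all genes. The median log2 difference of the 7 was -0.13 in TrbE10 hearts, with 2 above 0 and 5 below. In TrbE14 hearts the median was -0.04, with 3 above 0 and 4 below.

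Slc8a1, the exchanger of the surface membrane, was read by 3 probes. The brightest differed by -0.33 in TrbE10 (95% interval -0.64 to -0.03, limma adjusted p = 0.272) and by -0.19 in TrbE14 hearts (95% interval -0.50 to 0.12), and 1 heart of each mutant group lay within the range of the controls. With the mean of its probes the TrbE10 difference was -0.06. The dimmer probes differed by -0.11 and 0.26 in TrbE10 and by 0.04 and 0.12 in TrbE14 hearts, so that the probes did not point the same way. Camk2d was read by 4 probes, of which 3 passed the filter and the other was well above background on 3 arrays. The 3 gave -0.18, -0.15 and -0.16 in TrbE10 and -0.19, -0.13 and -0.12 in TrbE14 hearts, none of them called. By the brightest probe the controls read 11.98, 11.77, 11.66 and 11.66 and the TrbE14 hearts 11.59, 11.58, 11.52 and 11.62, all below the controls, while the TrbE10 hearts at 11.53, 11.76, 11.48 and 11.58 overlapped them.

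**Figure D3:**
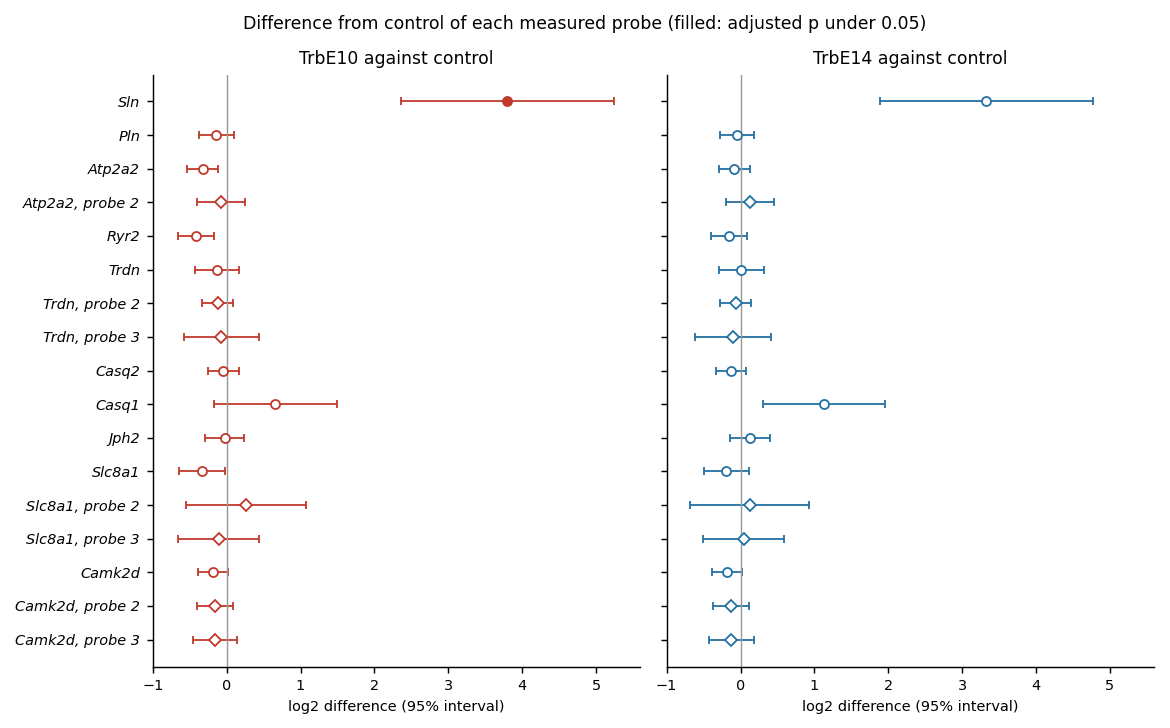
Log2 difference from control (x axis) of each of the 17 probes that passed the filter (y axis), in TrbE10 (left) and TrbE14 (right) hearts; bars are 95% intervals from limma, circles the brightest probe of a gene, diamonds its other probes, and filled symbols an adjusted p below 0.05. Sln at 3.80 in TrbE10 is the filled one and Sln at 3.33 in TrbE14 is open. Apart from Sln and Casq1 the probes lie between -0.41 and 0.26.

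In all, 1 of the 10 genes was called in TrbE10 hearts, Sln, beside 2.15% of all genes tested. In that comparison 4 members had an unadjusted limma p below 0.05 (Atp2a2, Ryr2, Slc8a1 and Sln), beside 19.8% of all genes. None was called in TrbE14 hearts by limma, beside 0.76% of all genes, with 2 members at an unadjusted p below 0.05 (Sln and Casq1; 16.6% of all genes) and 1 called by SAM (Sln). None was called between TrbE10 and TrbE14, where 0% of all genes were, with 2 members at an unadjusted p below 0.05 (Atp2a2 and Ryr2; 7.41% of all genes) and none by SAM. The brightest probes of 3 members did not overlap between TrbE10 and control hearts (Sln higher, Atp2a2 and Ryr2 lower), beside 10.6% of all genes, and those of 2 members did not between TrbE14 and control (Sln higher, Camk2d lower), beside 10.1%. The median log2 difference over the 10 genes was -0.13 in TrbE10 and -0.06 in TrbE14 hearts, beside -0.02 and -0.03 over all genes.

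A further list of 67 genes covers the rest of the calcium cycle, of which 66 were found on the array under their own or an older symbol and 58 passed the filter. Of these 58, 2 rose and none fell in each mutant, beside 2.15% of all genes called in TrbE10 and 0.76% in TrbE14 hearts. They were the same genes in both, Stim1 and Bin1. Stim1 encodes the calcium sensor of the store that opens Orai channels in the surface membrane. Bin1, amphiphysin 2, shapes the T-tubules, the inward folds of the surface membrane where release begins.

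Stim1 read 9.77, 9.71, 9.68 and 9.87 in control, 11.49, 11.32, 11.70 and 11.54 in TrbE10 and 11.75, 11.18, 11.48 and 11.01 in TrbE14 hearts. The lowest mutant heart lay above the highest control. It rose by 1.76, or 3.38-fold, in TrbE10 (standard error 0.15, limma adjusted p = 2.53e-04) and by 1.60, or 3.03-fold, in TrbE14 hearts (standard error 0.15, limma adjusted p = 6.07e-04). A second Stim1 probe rose by 1.81 (limma adjusted p = 1.96e-04) and 1.56 (limma adjusted p = 6.15e-04), but it shares most of its bases with the first and is no separate measurement of the transcript. The first is chr7:109585303-109585362 and the second chr7:109585312-109585371 in mm9, both on the plus strand, and their first 30 bases, shown over chr7:109585303-109585332 and chr7:109585312-109585341, make the overlap visible.
Stim1, first probe: agggctcttgtggagccctgggcaaggatg
Stim1, second probe: gtggagccctgggcaaggatgttatatttg

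Bin1 read 8.64, 8.54, 8.80 and 8.69 in control, 10.28, 10.20, 10.51 and 10.32 in TrbE10 and 10.29, 10.00, 10.51 and 9.92 in TrbE14 hearts. Its only probe that passed the filter lies on chromosome 18. It rose by 1.66, or 3.16-fold, in TrbE10 (standard error 0.13, limma adjusted p = 1.72e-04) and by 1.51, or 2.85-fold, in TrbE14 hearts (standard error 0.13, limma adjusted p = 4.04e-04). The control hearts lay close together, with SDs of 0.08 for Stim1 and 0.11 for Bin1. Between the mutants Stim1 differed by 0.16 (95% interval -0.17 to 0.48) and Bin1 by 0.15 (95% interval -0.14 to 0.44). Both kept their calls under every alternative tried and without any 1 array.

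**Figure D4:**
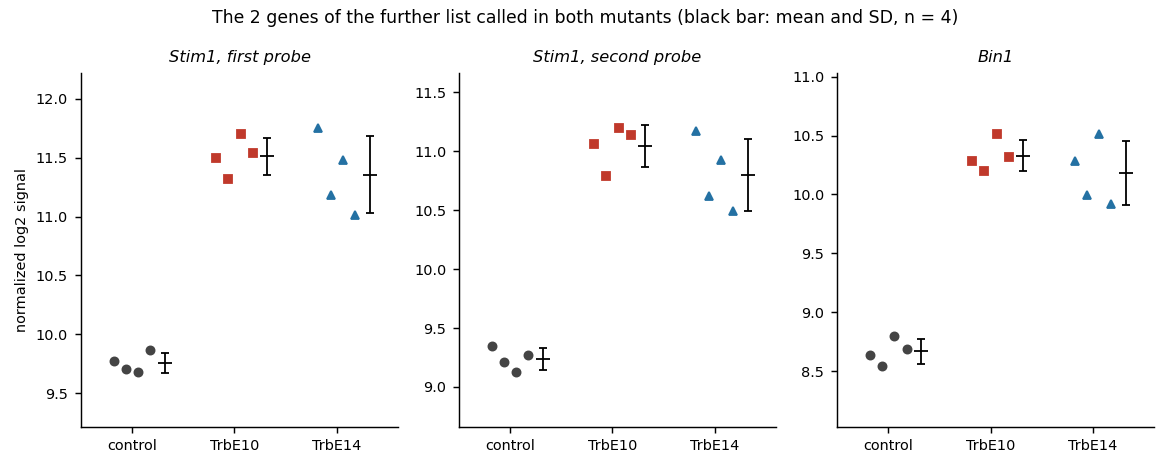
Normalized log2 signal (y axis) of both overlapping Stim1 probes and of Bin1 on each array, by group (x axis); circles are control, squares TrbE10 and triangles TrbE14 hearts, and the black bar gives the mean and SD of 4 hearts. All mutant hearts lie above all control hearts in each panel, with Stim1 controls at 9.68 to 9.87 and Bin1 controls at 8.54 to 8.80.

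The partners of both genes did not pass the test. The Orai channels that Stim1 opens differed by -0.13 (Orai1), 0.60 (Orai2) and 0.04 (Orai3) in TrbE10 and by -0.01, 0.47 and -0.11 in TrbE14 hearts, with limma adjusted p from 0.159 upwards, and Stim2 did not pass the filter. Cav3, the caveolin of muscle, differed by -0.04 and 0.12. The next largest differences of the list were those of Sypl2, a protein of the junction between T-tubule and store, at 0.94 in TrbE10 (limma adjusted p = 0.168) and 0.95 in TrbE14 hearts (limma adjusted p = 0.241), and of Tmem38b, a counter-ion channel of the store, at 0.89 (limma adjusted p = 0.0942) and 0.83 (limma adjusted p = 0.184). Both were well above background on 2 of the 4 control arrays and passed the filter through the mutant groups, so that the separation of the groups is no support for a difference. With normexp background correction the differences were 0.37 and 0.30 for Sypl2 and 0.31 and 0.33 for Tmem38b.

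By role, no other gene of the list passed the test. The 7 measured regulators and relatives of the pump had a median log2 difference of -0.13 in TrbE10 and 0.06 in TrbE14 hearts, with Atp2a3, a pump isoform of non-muscle cells, highest at 0.35 and 0.55. The 12 release channels and partners had medians of -0.02 and -0.04, running from Ryr3 at -0.59 to Fkbp1b, which stabilises the closed ryanodine receptor, at 0.47 in TrbE10 hearts. The 12 genes of surface calcium and sodium transport, among them the L-type calcium channel subunit Cacna1c at -0.07 and 0.11, had medians of -0.14 and 0.02. The 4 genes of storage and counter-ion flow had medians of -0.10 and -0.03, the 7 of the junction and T-tubule 0.46 and 0.26, and the 16 kinases, phosphatases and genes of store-operated entry -0.01 and -0.02. Over all 58 genes the median was -0.05 in TrbE10 and 0.02 in TrbE14 hearts, with 18 and 11 genes at an unadjusted p below 0.05, beside 19.8% and 16.6% of all genes.

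**Figure D5:**
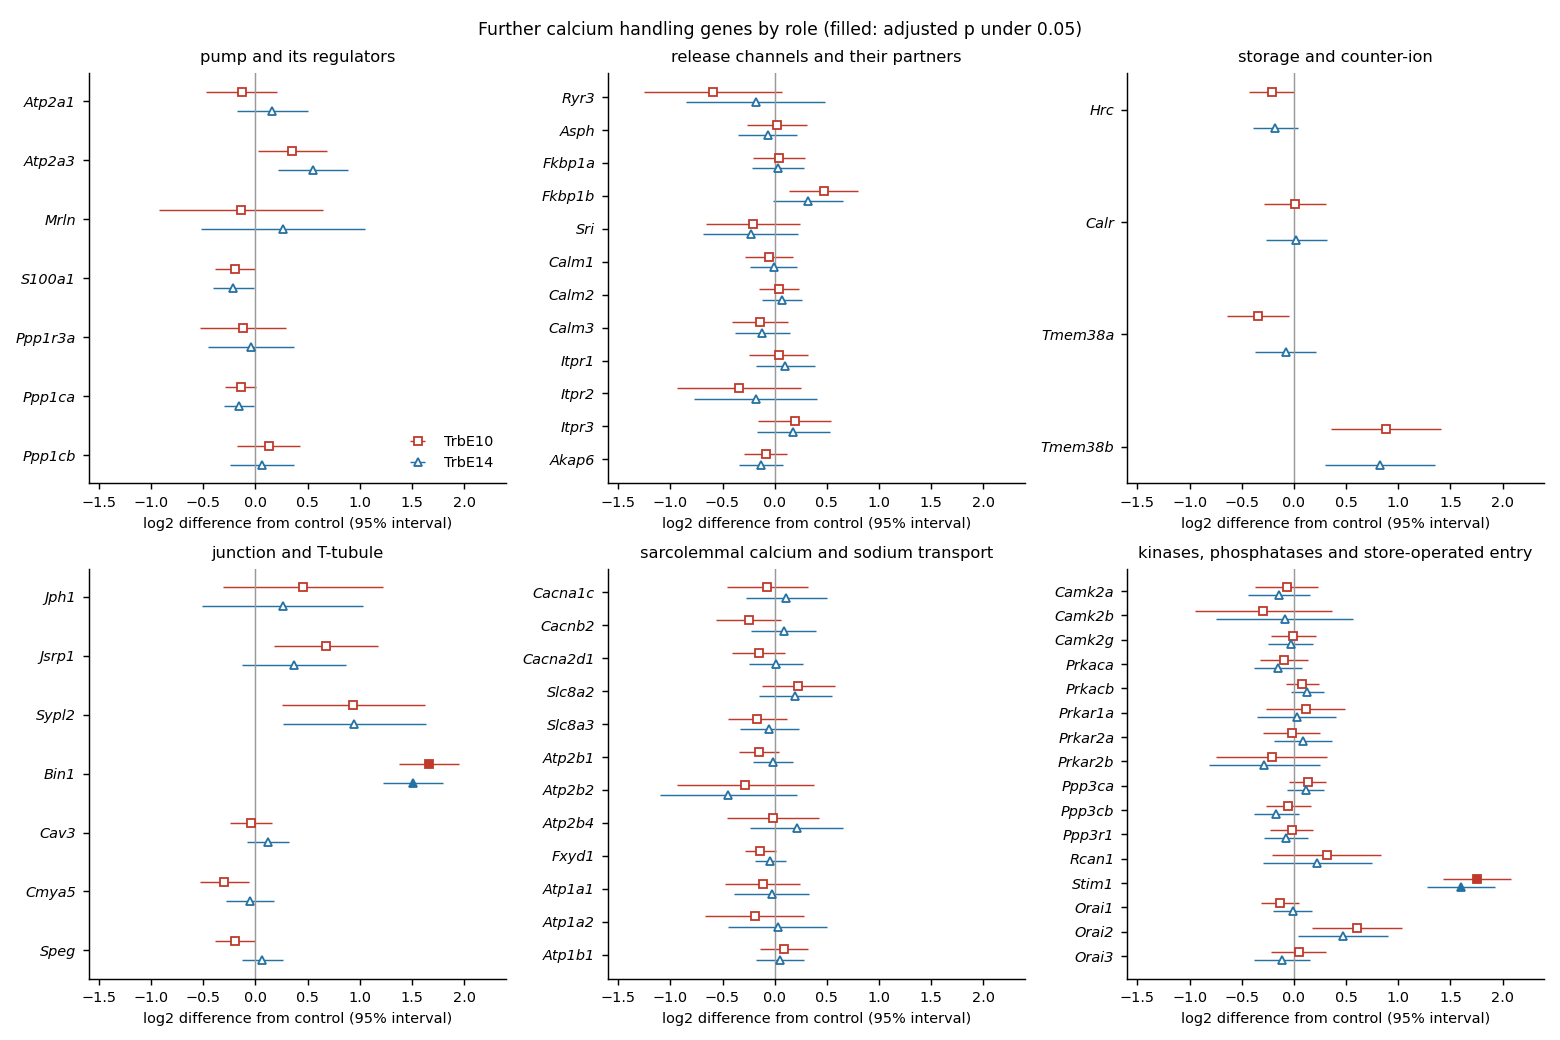
Log2 difference from control (x axis) of the 58 measured genes of the further calcium handling list, in 6 panels by role; squares are TrbE10, triangles TrbE14 hearts, bars 95% intervals from limma, and filled symbols an adjusted p below 0.05. Bin1 and Stim1 carry the filled symbols, at 1.51 to 1.76, and all other genes lie between -0.59 and 0.95.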

How the data were processed

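Left ventricular RNA of 12 mice was hybridised to one-colour Agilent arrays. The authors deposited, per the file headers, the output of Agilent Feature Extraction 10.5, in which the intensity of each spot is background-subtracted and detrended but not scaled between arrays, and a table of normalized log2 values of 22114 spots, which follows the log2 intensity of each array with a correlation of 0.997 to 0.998 and is not centred by gene.

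From the scanner intensities, 3671 control spots of 62976 were removed, outlier spots were set missing, and log2 intensities were quantile normalized. Spots of a probe were averaged, and probes well above background on at least 3 of 4 arrays of any group were kept (24593 of 55681). Where a gene needed 1 value, its brightest probe over all arrays gave it. A model with 1 mean per group was fitted in limma 3.58.1 (R 4.3.3; 9 residual degrees of freedom), with Benjamini-Hochberg adjustment per comparison at 0.05; the study's methods name SAM, tried here in an own implementation of 2 classes. Single genes were also tested by exact two-sided permutation. The number of arrays, 4 per group, limits the precision. A bound ("at least") sets the mean of a group against the lowest signal called well above background on each control array.

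The members and all lists (further calcium handling, atrial, ventricular and skeletal muscle, macrophages, fibroblasts, stress) were chosen with earlier results of these data known. Named were all members, list genes called in a mutant, the 4 largest differences of the calcium handling list, Myl7, Myl4, Atp2a1 and Mylpf, and the genes most correlated with Sln; other names were chosen after their values were seen. Older symbols were matched through RefSeq synonyms for 4 list genes. Alternatives were another scaling, background correction, filter, gene summary, sample set, test, replicate block, a sex covariate read from Ddx3y, a Myl7 covariate and leaving out each array. Sequences are those of the deposited array design.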

Additional observations from a re-analysis of the deposited data

Results flagged for a closer look

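In the groups of 4 arrays examined for the 10 genes and for Stim1, Bin1, Myl7 and Myl4, 2 of 42 held a heart far from the other 3, and chance alone marks about 1 in 20 such groups. The first control heart read 13.65 for Ryr2, above the other controls at 13.47 to 13.48. The second control heart read 12.56 for Trdn, below the other controls at 12.91 to 12.95. The spread of Sln among the controls was not marked in this way, since its 4 values were spaced out rather than 1 standing apart.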

How the results depend on the processing

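The direction of each Sln comparison was kept under all alternatives. Without a filter and in a fit of the compared groups alone the Sln change in TrbE10 hearts stayed 3.80 but missed the threshold, and 0 members were called. In TrbE14 hearts Sln passed the threshold, so that 1 member was called, with normexp background correction (3.24), the authors' values (3.33), SAM (3.33), sex as a covariate (3.80) and the mean of a gene's probes (3.33). Sln in TrbE14 hearts also passed with Myl7 as a covariate (3.33), a fit added after the data were seen. Leaving out 1 array at a time gave 3.23 to 4.53 for Sln in TrbE10, 2.75 to 4.05 in TrbE14, 0.37 to 0.66 between the mutants, 0 to 2 members called in TrbE10, 0 to 1 in TrbE14 and 0 between them, a Sln range among controls of 2.25 to 3.90, and 2 to 3 and 2 to 2 genes of the further list. Small differences changed sign: Trdn in TrbE14 under 75th percentile scaling (-0.066), normexp (-0.038), sex (-0.12) and the mean of probes (-0.053); Atp2a2 in TrbE14 by the mean of probes (0.023); Jph2 in TrbE10 with sex (0.024); Itgam by the mean of probes in TrbE10 (0.25) and under 75th percentile scaling in TrbE14 (-0.030); Myl7 with sex (0.12 and 0.48) and with normexp in TrbE14 (0.018); Myl4 in TrbE10 with sex (0.095) and with Myl7 (0.012). Leaving out an array also changed the sign of values near 0, for Casq2 and Jph2 in TrbE10 (-0.10 to 0.025 and -0.10 to 0.079), Pln, Trdn and Itgam in TrbE14 (-0.12 to 0.0044, -0.082 to 0.077 and -0.037 to 0.12), Myl7 (-0.64 to 0.56 in TrbE10, -0.53 to 0.62 in TrbE14) and Myl4 (-0.49 to 0.50 and -0.32 to 0.63). The cause of these shifts was not tested. Among the marker genes, the TrbE10 calls of Dkk3, Nkx2-5, Dcn, Stard10, C1qa, Cd68, Tnni2 and C1qc were lost without 1 array in 11, 10, 9, 9, 6, 5, 3 and 1 of the 12 refits, and the TrbE14 calls of Dcn and Ankrd1 in 5 and 1, at adjusted p of at most 0.132.

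The replicate numbers are not known to pair the hearts: deviations of same-numbered arrays correlated between -0.24 and 0.48, above 0.1 in 3 of 12 cases. With the replicate block Sln was 3.80 (adjusted p = 0.0342) in TrbE10 and 3.33 (adjusted p = 0.0874) in TrbE14 hearts, which changed neither call. The block moved no count of members or of further calcium handling genes called, and it ended the calls of Dcn in both mutants and of Dkk3 and Stard10 in TrbE10 hearts.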

Other observations

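Of 6 markers of cardiac stress, 2 rose in both mutants, beside 2.15% of all genes called in TrbE10 and 0.76% in TrbE14 hearts: Myh7, the slow myosin heavy chain, by 3.05 in TrbE10 (limma adjusted p = 0.00217) and 2.46 in TrbE14 hearts (limma adjusted p = 0.0107), and Ankrd1, a stretch-responsive protein of the sarcomere and nucleus, by 0.99 (limma adjusted p = 0.00396) and 0.87 (limma adjusted p = 0.0135). Of 10 fibroblast markers, 1 rose in each mutant, the matrix proteoglycan Dcn, by 0.39 (limma adjusted p = 0.0376) and 0.50 (limma adjusted p = 0.0190). The Dcn call was lost in 9 of the 12 fits without 1 array and under 5 other alternatives in TrbE10 hearts, and in 5 and under 2 in TrbE14 hearts. The mean log2 signal of the fibroblast list was 10.82 to 11.17 in control, 11.19 to 11.71 in TrbE10 and 11.17 to 11.64 in TrbE14 hearts.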
